A study of Mus musculus with 4 samples.

Results

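Closely packed runs of replication initiation zones were examined in mouse embryonic stem cells. A run was a chain of 3 or more zones of 1 list in which each gap to the next zone, from last listed position to next first position, was 25 kb or less. Joining chromosomes 1 to 19 in this way gave 1637 runs in set 1 and 1202 in set 2, 2839 in all. They held 5529 of the 27871 zones of set 1 (19.8%) and 3967 of the 24245 zones of set 2 (16.4%). Members were chosen by the listed positions of the zones, so number, length and inner spacing describe the choice and were not tested. All members were kept, and no filter on low values was used.

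The cells were E14tg2a, a mouse embryonic stem cell line, and the 4 samples were 2 replicates each of a parent line and of the line derived from it. The parent line carried Tet-OsTIR1 at Rosa26 and mAID-RNaseh2a with puroR, and the derived line carried Pole1-M630F in addition. All samples were kept with doxycycline and auxinole for 24 h, then with doxycycline and IAA for 12 h, so the controls also went through induction of the degron. Alkali-cleaved genomic DNA fragments of 300 to 2000 bp were sequenced. It is not stated whether each line is 1 clone or whether replicates came from separate cultures. The spread between the sets may therefore be technical. The 2 lists analysed are named set 1 and set 2, as are the libraries of replicate 1 and of replicate 2. They do not separate parent from mutant, so these were not compared. Each list gives a first position, a last position and the authors' own score per zone on a 1 kb grid of GRCm39, with no stated unit for the score. Read depth is unknown from these lists, so no interval for counting error was given.

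DNA replication starts from many sites in each cell cycle, and in mammalian genomes these sites gather into initiation zones from which forks leave in both directions. DNA polymerase ε copies mainly the leading strand, so a mutant form that leaves ribonucleotides behind marks the strand it made. RNaseh2a is a subunit of the enzyme that removes such ribonucleotides, and its degron lets the marks stay. A zone then appears as a stretch where the strand copied by polymerase ε switches from one strand to the other.

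Most runs were short chains in which 1 zone held most of the score. In set 1, 1191 runs had 3 zones, 321 had 4, 90 had 5, 25 had 6, 8 had 7 and 2 had 8. In set 2 the counts were 918, 229, 38, 13, 3 and 1. The median run length was 99 kb in set 1 (23 to 345 kb, interquartile range 69 to 134 kb) and 102 kb in set 2 (26 to 289 kb, interquartile range 70 to 139 kb). The zones filled a median of 63.2% of the run in set 1 and 65.7% in set 2. The mean inner gap of a run had a median of 16 kb in both sets, with no gap of any kind below 11 kb in either list. Runs covered 173 Mb of set 1 and 130.3 Mb of set 2.

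The limits of the definition fell within a smooth range of gaps. The largest inner gap was exactly 25 kb in 126 runs of set 1 and 103 of set 2, and 44 and 29 runs had a flanking gap of 26 kb, the nearest value outside the limit. Just under the smallest run, 4280 joined pairs of zones were listed in set 1 and 3592 in set 2. The gap on either side of a run had a median of 72 kb (set 1) or 78 kb (set 2).

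**Figure D1:**
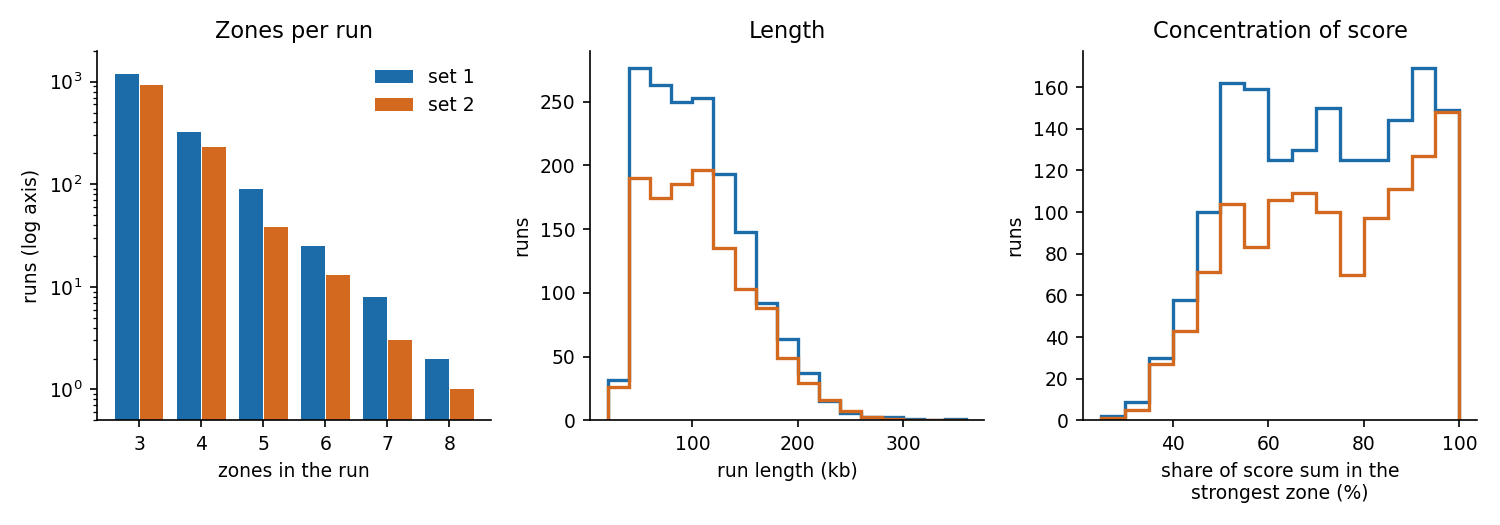
Zones per run (left, log axis), run length in kb (middle) and the share of a run's score sum held by its strongest zone in percent (right), as numbers of runs in set 1 (blue, 1637 runs) and set 2 (orange, 1202 runs). Runs of 3 zones make up 72.8% and 76.4%, and the strongest zone holds a median of 71.7% and 72.8% of the score.

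The zones inside runs were narrower and had lower scores than those outside. Median width inside runs was 11 kb for set 1, against 21 kb outside them, and 12 kb against 26 kb for set 2. Their median score was 3.40 against 8.79 in set 1 and 3.31 against 10.3 in set 2. Zones of a single 1 kb bin made up 15.1% of run zones in both sets, against 10.5% outside runs in set 1 and 9.28% in set 2. A run held at least 1 such zone in 42.3% of cases in set 1 and 41.8% in set 2. These values come from the lists that chose the members and were not tested.

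The score sum of a run had a median of 32.6 in set 1 (0.419 to 200.6) and 32.4 in set 2 (0.526 to 276). The strongest zone of the run held a median of 71.7% of the sum in set 1 and 72.8% in set 2, and more than 90% of it in 317 and 275 runs. Runs built of strong zones alone were few. All zones of the run reached the median score of their set in 47 runs of set 1 (2.87%) and 40 of set 2 (3.33%). A zone among the highest 10% of scores was present in 290 and 160 runs, and 2 or more such zones in 8 and 4. The score sum followed length (rank correlation across runs 0.864 in set 1, n = 1637, and 0.873 in set 2, n = 1202) far more than the number of zones (0.140 and 0.0963). Both values of each run come from the same list.

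The strongest zone had no fixed place in the run. In runs of 3 zones of set 1, the strongest was the first in 409, the inner in 375 and the last in 407. In set 2 these counts were 297, 285 and 336. Over runs of every size the strongest zone was an inner one in 36.2% of set 1 and 34.6% of set 2. If every zone of a run were equally likely to be the strongest, these shares would be 38.8% and 37.8%. Median scores in runs of 3 were 3.75, 3.22 and 3.98 from first to last in set 1 and 3.81, 3.11 and 3.86 in set 2. The middle zone was also the narrowest, with a median width of 10 kb between 13 kb and 13 kb in set 1, and 11 kb between 14 kb and 15 kb in set 2.

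Chromosome 10 held the longest of the runs with the most zones in set 1, 8 zones from 75576000 to 75792000. Its zones scored 0.498, 5.74, 0.183, 0.183, 39.99, 0.288, 3.22 and 2.17 in order. Set 2 listed 3 zones there, with scores of 11.5, 46.05 and 5.76, and its strongest zone (75657000 to 75718000) overlapped the strongest of set 1 (75668000 to 75722000). Both sets thus placed their highest score in the same part of this stretch. The zones of set 1 that scored 0.498, 0.183, 0.183, 0.288 and 3.22 met no zone of set 2. The other run of 8 zones in set 1, on chromosome 7 from 111286000 to 111473000, had its highest score (26.6) in the zone next to last. In set 2 a single zone of 94 kb with a score of 75.8 lay there, from 111357000 to 111450000. It overlapped 3 of the 8 zones of set 1 and lay across both gaps between them.

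Set 2 had its run of 8 zones on chromosome 13 from 54152000 to 54336000. Scores there were 0.614, 21.1, 15.8, 2.83, 16.8, 22.8, 0.657 and 0.0438. Set 1 listed 3 zones in that stretch with scores of 59.8, 1.78 and 27.8. The widest of them, 64 kb from 54188000 to 54251000, lay across 3 gaps of the set 2 run. Set 1 had 8 runs of 7 zones, of which the longest were on chromosomes 16 (first position 88418000), 5 (98273000) and 1 (111601000). Set 2 had 3 runs of 7 zones, on chromosomes 14 (100434000), 11 (8524000) and 2 (139123000), and 13 of 6 zones, the longest on chromosome 19 (50231000). A run of the other set was met by 1 of the 10 runs with 7 or more zones in set 1, and by 3 of the 17 with 6 or more in set 2. The run on chromosome 2 had a low score sum for its 7 zones, 9.29.

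**Figure D2:**
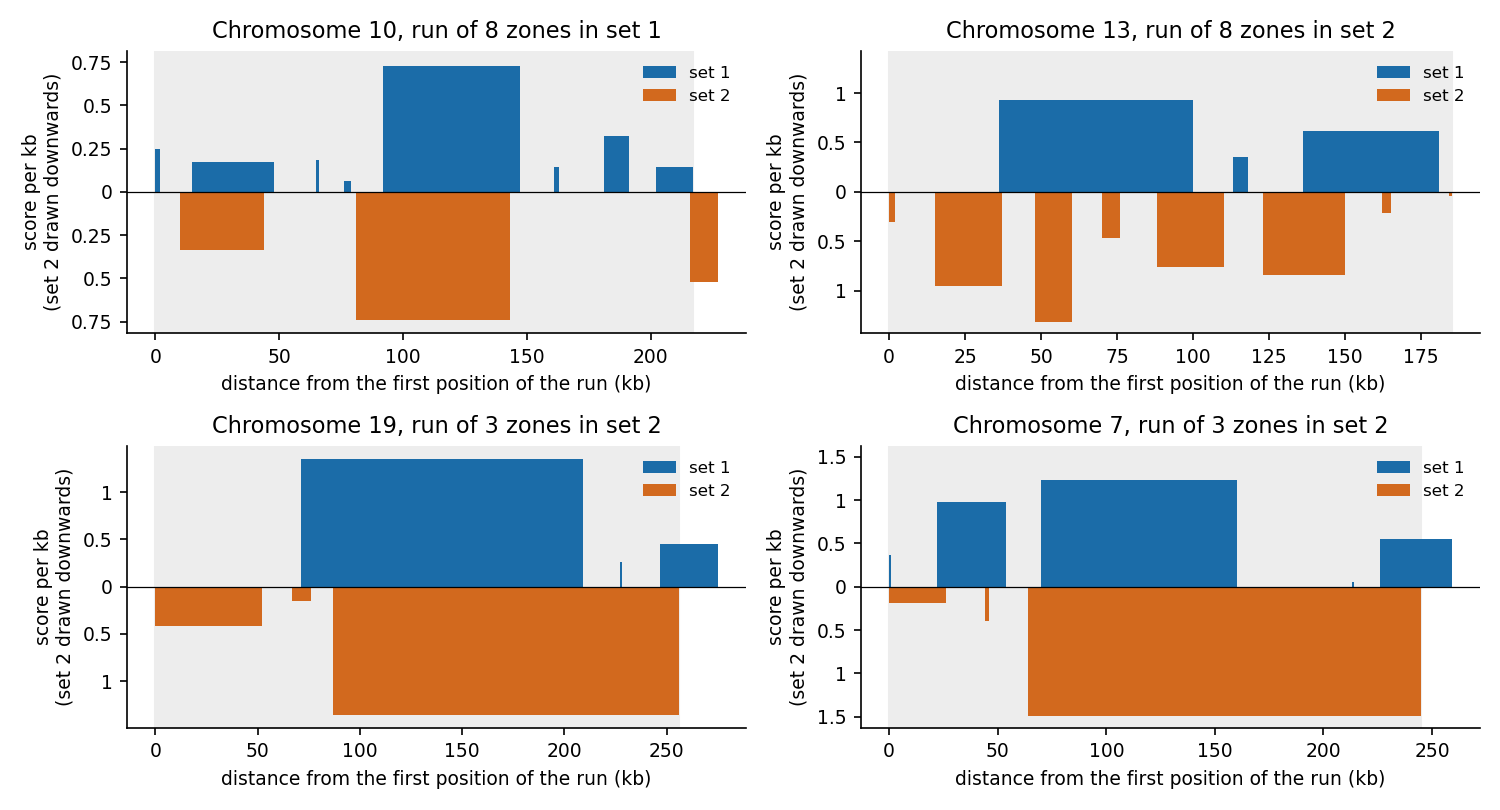
Score per kb of each listed zone against distance from the first position of the run in kb, for 4 named runs (grey background), with set 1 in blue upwards and set 2 in orange downwards. On chromosomes 10, 19 and 7 the strongest zones of both sets overlap. The weaker zones of the sets overlap each other in part on chromosomes 10 and 7 and not on chromosome 19. On chromosome 13 zones of set 1 lie across gaps of the set 2 run.

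The runs with the highest score sums owed them to 1 or 2 strong zones. In set 1 the highest sum, 200.6, belonged to 5 zones on chromosome 19 from 18421000 to 18765000, of which the last 2 scored 60.7 and 136.3. In set 2 it belonged to 3 zones on chromosome 7 from 61986000 to 62230000, with scores of 4.98, 0.789 and 270.2. At the same place set 1 listed 5 zones with scores of 0.367, 31.3, 110.4, 0.0524 and 18.1. The other runs with the highest sums in set 1 were those with first position 31006000 on chromosome 19, 80790000 (chromosome 3), 5084000 (chromosome 15) and 15327000 (chromosome 16). In set 2 they were 30935000 (chromosome 19), 11712000 (chromosome 11), 13923000 (chromosome 5) and 113768000 (chromosome 1). The strongest zone held from 58.2% to 97.0% of the sum in the 5 runs of set 1 and from 49.9% to 97.9% in those of set 2.

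Whether the places of the runs recur as initiation sites was asked in the set that had not chosen them. The share of run bins inside a zone of the other set was 48.2% for runs of set 1, where zones of set 2 cover 32.8% of all bins between the outermost zones of each chromosome. For runs of set 2 it was 45.3%, where zones of set 1 cover 32.0%. The difference was 15.3 points ± 3.47 (SD over 19 chromosomes) for set 1 and 13.1 ± 2.68 for set 2, above 0 on 19 of 19 chromosomes in both. Counting zone bins alone, coverage was 51.9% in runs and 50.9% outside runs in set 1, and 48.5% and 49.9% in set 2. That difference was 0.695 points ± 3.62 and -1.64 ± 3.84, above 0 on 10 and 7 of 19 chromosomes. The excess of zone bins over the axis was thus not particular to runs. In the 100 kb on either side of the runs, coverage by the other set was 26.5% and 25.9%, below the whole axis. By the definition of a run, the 25 kb next to its ends hold no zone of the choosing list. Chromosomes of 1 list share its libraries, and these differences are given without a p-value for that reason.

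Zones of the other set were present at most runs, usually as 1 or 2. Of the 1637 runs of set 1, 1488 (90.9%) met at least 1 zone of set 2, sharing 1 bin or more. A single zone of set 2 was present at 836 runs (51.1%), 2 at 448 (27.4%), 3 or more at 204 (12.5%) and none at 149 (9.10%). Of the 1202 runs of set 2, 1111 (92.4%) met set 1, with 1 zone at 496 (41.3%), 2 at 394 (32.8%), 3 or more at 221 (18.4%) and none at 91 (7.57%). Zone by zone, 3019 of 5529 run zones of set 1 (54.6%) met set 2, against a background of 56.3% of all zones of set 1. In set 2, 2197 of 3967 run zones (55.4%) met set 1, against a background of 60.2%. Zones of the other set also met most other features of this length. Among isolated zones of 69 to 134 kb in set 1, 98.9% met set 2, against 95.0% of runs of that length, and in set 2, from 70 to 139 kb, 98.8% met set 1 against 96.9% of runs. A single zone of the other set seldom spanned a whole run, in 33 cases for set 1 and 11 for set 2.

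Averaged over runs, scores of the other set formed 1 dome over the run. Expressed as score per kb relative to the mean of its own set, set 2 had 1.26, 1.75, 1.99, 1.88 and 1.34 over the 5 equal parts of the runs of set 1. Set 1 had 1.31, 1.64, 1.73, 1.65 and 1.22 over the runs of set 2. The lowest values lay outside the run, from 1 to 2 such parts beyond its ends, at 0.571 and 0.541 for runs of set 1 and at 0.592 and 0.587 for those of set 2. Within their own list the runs were nearly flat, from 1.73 to 1.86 in set 1 and from 1.63 to 1.76 in set 2. Every run begins and ends with a zone of its own list, so the end parts hold zone bins by the choice of members. The part of the choice in the flat shape was not tested. The choice also leaves a gap longer than 25 kb beyond each end. The other set covered only 23.0% (set 1) and 22.4% (set 2) of bins in such longer gaps. The averages over runs do not show how many peaks a single run had in the other set.

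The gaps inside runs were covered by the other set more often than gaps longer than 25 kb. Against gaps of 25 kb or less outside runs, the difference was small beside its spread. Zones of set 2 covered 41.1% of the gap bins inside runs of set 1 and 23.0% of bins in gaps longer than 25 kb. Zones of set 1 covered 38.5% and 22.4% of the matching bins in set 2. The difference was above 0 on 19 of 19 chromosomes in both sets (18.5 points ± 4.59 and 16.1 ± 5.27, SD). Gaps of 25 kb or less between 2 zones that belonged to no run were covered over 38.5% of bins in set 1 and 35.8% in set 2. The difference between gaps in runs and in pairs was 2.93 points ± 4.69 and 2.56 ± 6.48 over chromosomes, above 0 on 12 of 19 in both sets.

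The midpoint of a weaker run zone was inside a zone of the other set less often than the midpoint of a run gap. Midpoints were used because they do not depend on width. Place within the run was not matched, as weaker zones can be end zones and gaps cannot. In the first, middle and last of 5 equal parts, set 2 covered 40.5%, 54.9% and 41.5% of bins in runs of set 1. In runs of set 2, set 1 covered 40.3%, 51.0% and 38.5%. The part of place in the comparison was not tested. The strongest zone of the run had its midpoint covered in 839 of 1637 cases in set 1 (51.3%) and 577 of 1202 in set 2 (48.0%). For the weaker run zones this was 1393 of 3892 (35.8%) and 997 of 2765 (36.1%), against 32.8% and 32.0% of all bins. For the gaps it was 1600 of 3892 (41.1%) and 1064 of 2765 (38.5%). Weaker zones minus gaps gave -5.39 points ± 4.17 (SD over 19 chromosomes) in set 1, above 0 on 2 of 19 chromosomes, and -2.65 ± 4.77 in set 2, above 0 on 4 of 19. Strongest minus weaker zones gave 14.7 ± 8.66 and 11.8 ± 6.79, above 0 on 18 and 17 of 19. Isolated zones, with no neighbour within 25 kb, lay between, at 39.9% and 41.3%.

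**Figure D3:**
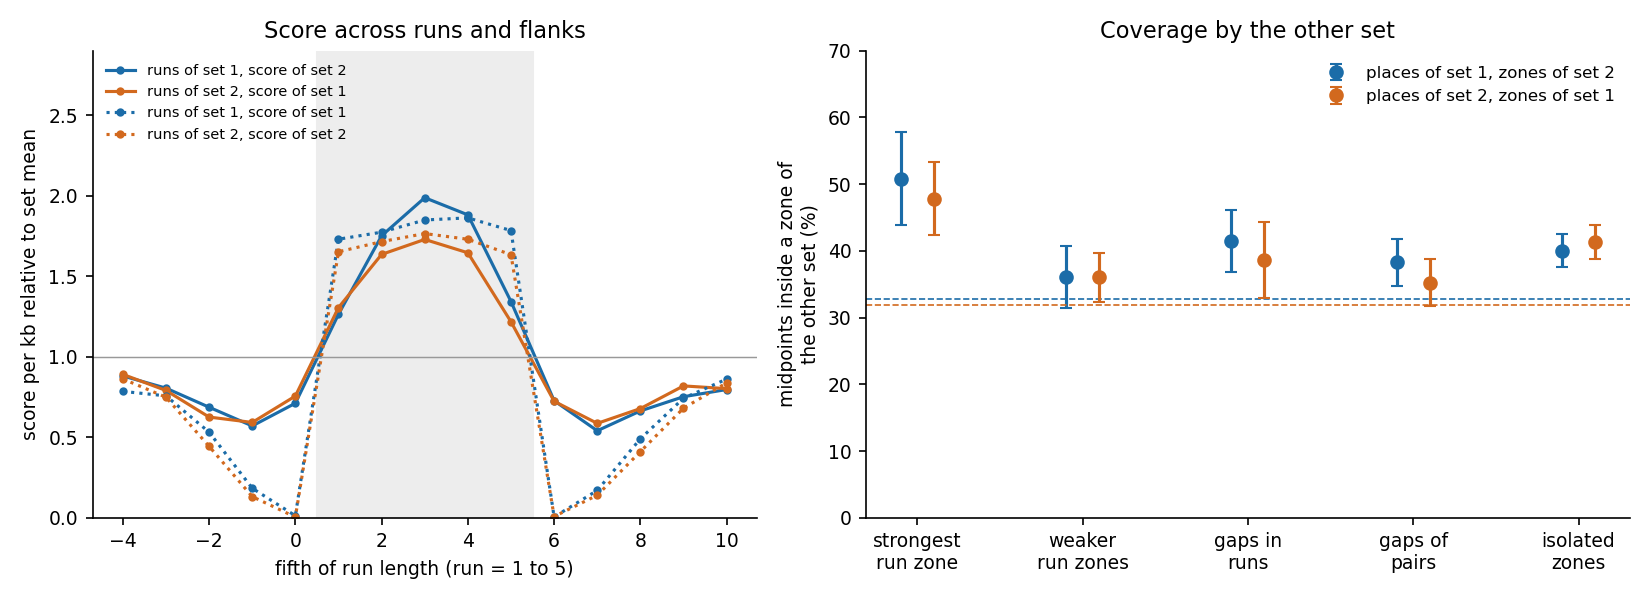
Left, score per kb relative to the set mean over 5 equal parts of each run (grey) and flanks of 1 run length, with solid lines for the set that did not choose the runs and dotted lines for the set that did. Right, percent of midpoints inside a zone of the other set (points, mean over 19 chromosomes; bars, SD), with dashed lines for the share of all bins; strongest run zones lie highest and weaker run zones lowest or close to it.

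Stronger runs were covered more. Runs were ranked by score per kb and cut into 4 equal classes. In set 1, zones of set 2 covered 30.9% of the bins of the lowest class and 60.5% of those of the highest. For set 2 the values were 31.3% and 57.2%. The lowest class thus lay near the share of all bins (32.8% and 32.0%). Across runs, score per kb in the choosing set and in the other set had a rank correlation of 0.555 (n = 1637) and 0.517 (n = 1202), given as a description because runs share their libraries.

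Runs were also set beside isolated zones of the same range of length, the interquartile range of run lengths, a class chosen after the data were seen. Isolated zones of 69 to 134 kb in set 1 (n = 1480) were covered by set 2 over 68.0% of their bins, against 44.6% for 824 runs of that length. In set 2, isolated zones of 70 to 139 kb (n = 2094) were covered over 61.9% and 614 runs over 42.3%. The difference was 24.0 points ± 5.87 (SD over 19 chromosomes) and 19.6 ± 5.995, above 0 on 19 of 19 chromosomes in both. Isolated zones had higher scores, a median of 78.5 against a score sum of 33.0 in set 1 and 87.2 against 32.3 in set 2. Runs also hold gaps, while an isolated zone has zone bins alone. In runs of every length, zone bins alone were covered over 51.9% in set 1 and 48.5% in set 2. The parts of score and of gaps in the difference were not tested. A run of the other set was met by 10.5% of these isolated zones and 11.9% of these runs in set 1, and by 16.2% and 16.9% in set 2.

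Runs themselves seldom recurred as runs. A run of set 2 was met by 196 of the 1637 runs of set 1 (12.0%), and 196 of the 1202 runs of set 2 (16.3%) met a run of set 1. Across all zones, a run of the other set was met by 7.24% in set 1 and 9.89% in set 2, and runs of set 2 covered 5.42% of all bins and runs of set 1 7.19%. When set 2 was moved round each chromosome by a random offset of at least 1 Mb, a median of 172 runs of set 1 were met (10.5%, 95% range of shifts 150 to 194). The observed number was 1.14 times the shifts' mean. In the permutation test by circular shifts it had p = 0.020, one-sided (p = 0.020 after Benjamini-Hochberg adjustment over 3 measures). For runs of set 2 the ratio was 1.14, also with a one-sided permutation p = 0.020. Both counts come from the same 197 overlapping pairs, so the second is no separate support.

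Runs of both sets shared more bins than shifted ones. This total grows with the number of runs met and with the depth of each overlap, and depth alone was not tested. Runs of both sets had 15078 bins of 1 kb in common, against a mean of 9318 in shifted lists (95% range 7884 to 10884), a ratio of 1.62. None of 1000 shifts reached this number, so the same permutation test gave p = 0.001, the lowest value that 1000 shifts allow (adjusted p = 0.0030). With a reciprocal overlap of 50% or more, 7.03% of the runs of set 1 were met against 3.17% in shifted lists (one-sided permutation p = 0.001). At a joining distance of 15 kb, runs met fell to the level of shifted lists (2.58% against 2.57%, one-sided permutation p = 0.54). Fewer runs were left at that distance, and the part of their number was not tested.

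**Figure D4:**
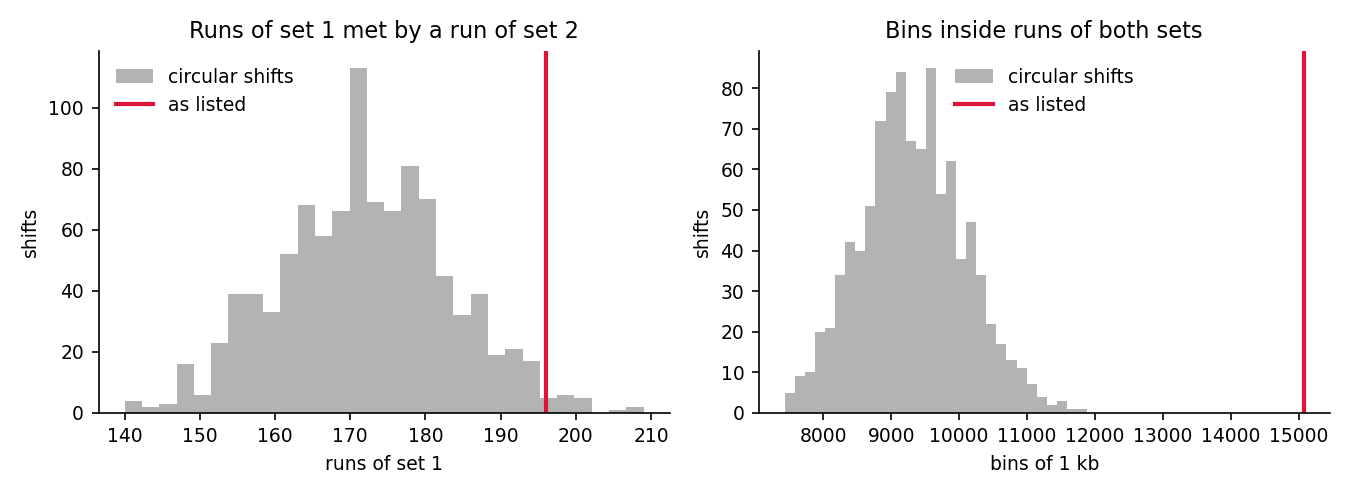
Runs of set 1 met by a run of set 2 (left) and bins of 1 kb inside runs of both sets (right), over 1000 circular shifts of set 2 (grey) and as listed (red line). The listed value of 196 runs lies in the upper tail of the shifts and that of 15078 bins above all of them.

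Gaps of both sets coincided inside overlapping runs about as often as the product of their shares. The 197 overlapping pairs shared a median of 71 kb, or 49.6% of their joint extent (0.935% to 98.6%), and 19 shared more than 80%. First positions differed by a median of 36 kb and last positions by 33 kb, and in 7 pairs both ends lay within 10 kb. Both members had the same number of zones in 98 pairs. Within the shared bins, 30.8% were gap in set 1, 29.9% in set 2 and 9.68% in both. The product of the separate shares is 9.21%. A gap bin of set 1 was a gap in set 2 in 31.4% of cases, and a zone bin of set 1 in 29.2%. Score sums of the paired runs had a rank correlation of 0.511 across the 197 pairs, given as a description.

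Chromosome 19 held the pair of overlapping runs with the best mean rank by score sum. In set 1 the run spanned 31006000 to 31209000 with zone scores of 186.6, 0.262 and 12.8, and in set 2 it spanned 30935000 to 31190000 with 21.9, 1.34 and 229.5. The strong zones overlapped, but the weaker zones lay after the strong one in set 1 and before it in set 2. No bin of their 185 kb in common was a gap in both sets. Chromosome 7 held the next pair, both from 61986000, with score sums of 142.1 and 276. Chromosome 10 followed, with a run of 103131000 to 103286000 and a sum of 136.2 in set 1, and of 103081000 to 103298000 and 203.3 in set 2. The others of the 10 best-ranked pairs began in set 1 at 78182000 and 65458000 (chromosome 8), 5692000 (chromosome 5), 20807000 (chromosome 1), 102686000 (chromosome 13), 12340000 (chromosome 11) and 82354000 (chromosome 7). The pair at 78182000 on chromosome 8 had the deepest overlap of these 10, with 92.1% of its joint extent in common.

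Runs were spread over all 19 chromosomes with modest differences that were not the same in both sets. Set 1 had 0.677 runs per Mb ± 0.0705 (SD over 19 chromosomes), from 0.559 on chromosome 18 to 0.852 on chromosome 8. Set 2 had 0.496 ± 0.0542, from 0.380 on chromosome 16 to 0.593 on chromosome 7. Set 1 had more runs per Mb than set 2 on 18 of them, and on chromosome 18 both had 0.559. Across the 19 chromosomes the values of the sets had a Pearson correlation of 0.195 and a Spearman correlation of 0.200, given as a description. Chromosome 8 had 24.3% of its set 1 zones in runs, and chromosome 16 had 12.1% of its set 2 zones in runs.

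Along the chromosomes, which in mouse begin at the centromere, no end was favoured. Across 10 equal parts of the span, runs per Mb ranged from 0.616 to 0.787 in set 1. In set 2 the range was 0.471 to 0.537. The sixth part was highest in both. The first 10 Mb held 0.684 runs per Mb in set 1 and 0.542 in set 2, the last 10 Mb 0.711 and 0.495, and the remainder 0.679 and 0.497. Single windows varied more, but each held few runs, and the scatter of such small counts was not tested. Over 230 windows of 10 Mb, the number of runs was 1 to 13 in set 1 (median 7) and 0 to 12 in set 2 (median 5), with a Spearman correlation of 0.150 between the sets. The number of all zones in these windows correlated at 0.366. Within a set, windows with more zones had more runs (Spearman correlation 0.550 in set 1 and 0.436 in set 2). Neighbouring windows and chromosomes share libraries, so these are descriptions.

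**Figure D5:**
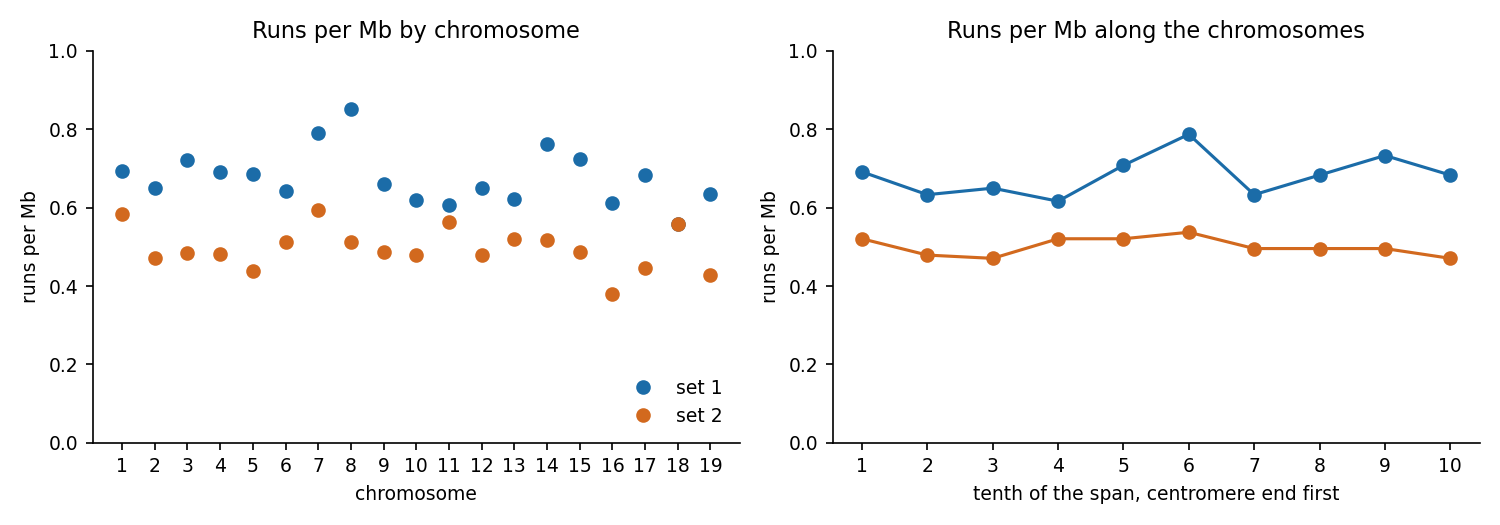
Runs per Mb on each of the 19 chromosomes (left) and in 10 equal parts of the zoned span, pooled over chromosomes (right), for set 1 (blue) and set 2 (orange). Set 1 lies from 0.559 to 0.852 and set 2 from 0.380 to 0.593 by chromosome, and the parts along the span differ less.

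Chromosome 7 from 23095000 to 33094000 had the most runs of any 10 Mb window summed over both sets, 13 in set 1 and 12 in set 2. Chromosome 8 from 73118000 to 83117000 came next with 13 and 11. By the sum over both sets, the fewest were in chromosome 10 from 23070000 to 33069000, with 1 and 3, and chromosome 4 from 143051000 to 153050000, with 2 and 2. These poor windows still held 105 and 90 zones, and 97 and 102 zones, in set 1 and set 2. The next run of the same set lay a median of 954 kb (set 1) or 1287 kb (set 2) away, and within 100 kb in 86 and 60 cases. The longest stretch without a run of set 2 was 17.1 Mb on chromosome 5, from 96083000 to 113194000. It held 143 zones of set 2, none of them in a run, and 12 runs of set 1. Set 2 had 8.36 zones per Mb there, against 9.82 on the whole of chromosome 5. In set 1 the longest such stretch was 8.75 Mb on chromosome 8, from 53747000 to 62494000, with 90 zones of set 1 and 3 runs of set 2. Set 1 had 10.3 zones per Mb there, against 12.4 on the whole of chromosome 8. Each of these stretches was thus free of runs in 1 set only.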

How the data were processed

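Ribonucleotides in genomic DNA were mapped in 4 samples of E14tg2a cells. Reads were aligned with Bowtie2 on the GRCm39 build according to the submitters' processing notes. Not given in the sources used here are its version, how zones were called and which libraries entered each list. The score that the authors deposited for each zone has no stated unit. The average profiles over runs, in score per kb, were divided by the set mean. Zone scores, score sums and the plot of named runs are in undivided scores. The score sums averaged over both sets are undivided too. Whether the sets share a scale is unknown, so differences in the size of undivided scores between sets were not interpreted.

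Zones were joined into runs as defined above, with the last position read as the last 1 kb bin. Each chromosome was taken between its outermost zones in either list, with assembly gaps kept. A score was spread evenly over the bins of its zone. Run overlap was set against 1000 circular shifts of set 2, drawn for each chromosome. The run finder and the shift test were tested on simulated lists. Scripts ran under Python 3.11.15 with NumPy 2.4.6, and figures were drawn with Matplotlib 3.10.9. The members and measures were chosen with earlier results of these data known. Named runs are the 5 with the most zones (ties to the longer run) and the 5 with the highest score sum in each set, the 10 best-ranked overlapping pairs, and extreme 10 Mb windows; the run-free stretches were named after their values were seen. Gene positions and sequence were not used here, since the tables at hand are on GRCm38.p6.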

Additional observations from a re-analysis of the deposited data

Results flagged for a closer look

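The X chromosome is not among the members, and runs were present there too. By the same definition it held 122 runs in set 1 and 82 in set 2, which is 0.734 and 0.493 runs per Mb. The means of the 19 autosomes were 0.677 and 0.496. The median run on X was 93.5 kb long in set 1 and 89.5 kb in set 2.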

How the results depend on the processing

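Values here are means of both sets, as planned or, for coverage by the other set, added after the data were seen. The number of runs per set was 1420 (1202 to 1637 with either set left out) and fell to 408 at a joining distance of 15 kb, 365 and 90 with at least 4 or 5 zones, 913.5 without 1-bin zones or with plain interval ends, and 66 without scores under the median. No run was left at 10 kb. The setting with plain interval ends also left out 1-bin zones. Its number of runs and share of zones are the same as without 1-bin zones for that reason. In the order 15, 20 and 30 kb, 4 and 5 zones, no 1-bin zones, no lowest 10% of scores, none under the median and plain ends, median length was 81.5, 91.5, 107.5, 127.8, 154.5, 108.5, 106, 154.8 and 107.5 kb (main 100.5; 99 to 102 by set). Median score sum was 26.3, 29.4, 35.1, 40.6, 44.7, 38.6, 38.2, 90.6 and 38.6 (main 32.5; 32.4 to 32.6), and 32.9 with X. The share of zones in runs was 4.93%, 12.1%, 23.3%, 6.01%, 1.82%, 12.8%, 13.5%, 1.54% and 12.8% (main 18.1%; 16.4% to 19.8%). These moves follow from the definition. Run bins covered by the other set stayed from 46.5% to 48.4% (main 46.7%; 45.3% to 48.2%) except 56.1% without scores under the median. Gap bins covered were 42.8% with 5 zones, 42.6% without 1-bin zones, 42.8% without the lowest 10% and 56.9% without scores under the median (main 39.8%; 38.5% to 41.1%). Weaker zones minus gaps kept its sign under all these settings and was -8.46 points without scores under the median (main -3.87; -5.32 to -2.42). The share of set 1 runs met lost its call at 15 kb (2.58%), 4 zones (3.36%) and 5 zones (0.800%). It also did so without scores under the median (1.19%). Shared bins lost theirs at the same settings (766, 1361, 157 and 185 bins). Fewer runs were left at these settings, and the part of their number was not tested. Ratios to shifted lists were then 1.003, 1.10, 1.20 and 1.82 for runs met (main 1.14) and 1.42, 1.48, 2.31 and 4.27 for shared bins (main 1.62). The one-sided permutation p for runs met ran from 0.001 to 0.56 over all alternatives. The share led by an inner zone was 34.6% to 36.2% by set, and highest over lowest runs per Mb 1.52 to 1.56. Depth is unknown from these lists.

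No paired analysis was possible because neither list separates mutant from parent.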
